A study of Mus musculus with 32 samples.

Results

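The potassium channel genes described here were the 91 autosomal protein-coding genes of the mouse whose RefSeq symbol on the GRCm38 assembly starts with Kcn, with Kcnq1 left out. They were 91 of 20665 autosomal protein-coding genes. The rule of choice used the symbol and the chromosome and no measured value, but it was set with earlier results of these data known. The genes were grouped by symbol into kinds of subunit. There were 28 voltage-gated pore subunits, 10 silent modifier subunits, 15 inward rectifiers, 14 two-pore-domain channels and 16 auxiliary or regulatory subunits. The other 8, with symbols starting Kcnma, Kcnn, Kcnt or Kcnu, were grouped as calcium- or sodium-activated channels, whatever opens each one. Each gene was read over a window made of its annotated span plus 5 kb on each side, and a gene counted as marked in a list if any peak overlapped that window, even by 1 bp.

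The data were CUT&Tag peak lists of mouse oocytes, an assay in which an antibody directs a transposase to chromatin that carries a histone mark. H3K27me3, trimethylation of histone H3 at lysine 27, was profiled in 10 groups and H2AK119ub, ubiquitylation of a lysine in the tail of histone H2A, in 6. The 32 samples formed 16 groups of 2, and 1 list was deposited for each group, so no difference between lists had a replicate check and no test was possible. Where controls share a stage and a mark, their differences are given as a spread among controls, which differ in genotype and are not replicates.

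The wild-type (WT) oocytes came from ovaries of fetuses at E18.5 (days of gestation) and of pups 1, 6 or 7 days after birth (P1, P6 and P7), with P6 oocytes labelled non-growing and P7 oocytes growing, and both marks were profiled at all 4 stages. PRC1ctrl and PRC1cKO oocytes were profiled for H3K27me3 at P6 and P7. The genotype label of PRC1ctrl is Ring1-/-; Rnf2F/+; Ddx4-Cre, so this control lacked Ring1 as well. The label of PRC1cKO is Ring1-/-; Ring1F/-; Ddx4-Cre, which names Ring1 where its control names Rnf2, so which gene was floxed is not settled by the labels. PRC2ctrl (EedF/+; Ddx4-Cre) and PRC2cKO (EedF/-; Ddx4-Cre) oocytes were profiled for both marks at P6. All 4 of these groups carried Ddx4-Cre, a recombinase made in germ cells. The PRC2cKO H3K27me3 list still held 49615 peaks.

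Potassium channels let potassium ions leave or enter cells and set the resting membrane potential, the shape of action potentials and the transport of salt and water in epithelia. Many of their genes are used in neurons, muscle or epithelia and are silent in other cells. Polycomb repressive complex 1 (PRC1) ubiquitylates histone H2A and Polycomb repressive complex 2 (PRC2) methylates histone H3 at genes that a cell keeps silent, often around promoters rich in the dinucleotide CG.

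Promoters of 5 genes are shown because they span what was seen. The promoter of Kcng3, a silent modifier subunit that alters other voltage-gated channels, had H2AK119ub in all 6 lists of that mark and H3K27me3 in 6 of 10 lists. That of Kcnk5, an acid-sensitive two-pore-domain channel, had H2AK119ub in all 6 lists and H3K27me3 in 2, WT P7 and PRC1ctrl P7. Kcnd2 encodes a voltage-gated subunit of rapidly inactivating current in neurons and heart, and its promoter was covered in all 16 lists. Kcna10, a voltage-gated subunit, was covered at its promoter in 9 H3K27me3 and 4 H2AK119ub lists although the sequence shown holds no CG. Kcnj13, an inward rectifier of transporting epithelia, was covered in no list. Each sequence runs 5′ to 3′ on the strand of the gene from 250 bases before to 50 bases after its start, is RefSeq sequence of GRCm38.p6, and has each CG in capitals. The positions are chr17:83631846-83632145 (minus strand), chr14:20181733-20182032 (minus strand), chr6:21215096-21215395 (plus strand), chr3:107182893-107183192 (plus strand) and chr1:87394680-87394979 (minus strand).
Kcng3: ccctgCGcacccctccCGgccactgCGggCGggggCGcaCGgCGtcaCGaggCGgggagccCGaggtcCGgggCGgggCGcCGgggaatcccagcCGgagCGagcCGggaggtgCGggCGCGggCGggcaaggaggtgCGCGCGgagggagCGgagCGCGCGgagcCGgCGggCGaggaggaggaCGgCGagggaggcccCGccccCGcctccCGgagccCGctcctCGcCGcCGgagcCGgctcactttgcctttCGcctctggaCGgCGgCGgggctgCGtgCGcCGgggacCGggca
Kcnk5: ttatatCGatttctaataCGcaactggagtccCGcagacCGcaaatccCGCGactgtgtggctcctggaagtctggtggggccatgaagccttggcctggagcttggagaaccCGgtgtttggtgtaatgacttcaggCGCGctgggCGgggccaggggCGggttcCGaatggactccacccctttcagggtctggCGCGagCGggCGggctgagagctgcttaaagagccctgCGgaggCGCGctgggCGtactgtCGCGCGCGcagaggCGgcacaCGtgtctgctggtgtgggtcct
Kcnd2: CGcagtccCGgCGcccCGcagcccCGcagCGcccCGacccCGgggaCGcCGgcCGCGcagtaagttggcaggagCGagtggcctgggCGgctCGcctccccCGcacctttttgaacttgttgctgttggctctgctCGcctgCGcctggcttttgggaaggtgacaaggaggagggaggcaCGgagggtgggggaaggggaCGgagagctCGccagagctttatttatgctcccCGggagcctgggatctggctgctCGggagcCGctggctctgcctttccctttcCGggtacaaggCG
Kcna10: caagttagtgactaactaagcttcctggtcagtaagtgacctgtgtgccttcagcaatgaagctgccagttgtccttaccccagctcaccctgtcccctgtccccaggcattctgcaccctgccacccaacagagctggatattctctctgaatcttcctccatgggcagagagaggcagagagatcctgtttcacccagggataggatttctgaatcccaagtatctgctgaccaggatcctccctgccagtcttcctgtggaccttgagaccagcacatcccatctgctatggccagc
Kcnj13: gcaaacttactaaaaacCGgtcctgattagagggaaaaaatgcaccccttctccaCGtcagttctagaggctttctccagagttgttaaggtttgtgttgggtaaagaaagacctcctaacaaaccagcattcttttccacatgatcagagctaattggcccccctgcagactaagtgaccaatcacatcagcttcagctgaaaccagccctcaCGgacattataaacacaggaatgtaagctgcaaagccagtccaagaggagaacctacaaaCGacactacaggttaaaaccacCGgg

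The dinucleotide CG, which reads the same on both strands, occurred 49 times in the Kcng3 promoter, 26 times in those of Kcnk5 and Kcnd2, 5 times in that of Kcnj13 and 0 times in that of Kcna10. Of all 20085 promoters of the table, 95.6% held at least 1 CG and the median number was 14. Kcnk5 and Kcnd2 thus had the same number of CG and H3K27me3 in 2 and in 10 lists at the promoter. The table held a promoter for 68 of the 91 genes, which is 74.7%, so a comparison of CG content over the whole set is void and was not made.

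Promoters were covered by both marks in most of these 68 genes. In WT H3K27me3 lists a promoter was covered in 56 of 68 genes at E18.5 (29.9% of all genes with a promoter in the table), 56 at P1 (30.8%), 59 at P6 (33.4%) and 63 at P7 (37.5%). In WT H2AK119ub lists the numbers were 65 at E18.5 (61.6% of all genes), 66 at P1 (48.7%), 65 at P6 (52.4%) and 50 at P7 (36%). The 1 kb just downstream of the start had H3K27me3 at P6 in 85.3% of the 68 genes and 32.3% of all 16457 genes. In the 1 kb bin centred 19.5 kb downstream the shares were 41.2% and 21.6%.

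**Figure D1:**
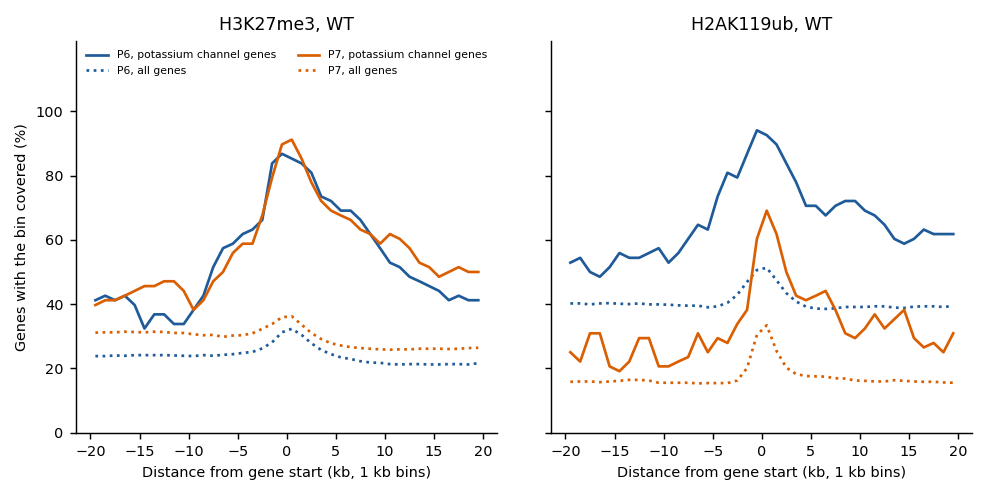
Share of genes with any coverage in each 1 kb bin (vertical axis, %) against distance from the gene start (horizontal axis, kb) in WT oocytes at P6 and P7, for 68 potassium channel genes (solid lines) and 16457 genes (dotted lines). The solid lines are highest in the bins beside the start, with 85.3% for H3K27me3 and 92.6% for H2AK119ub just downstream of it at P6, and lie above the dotted lines of their stage.

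Both marks lay over nearly all potassium channel genes in all 16 lists. In WT oocytes H3K27me3 marked 84 of 91 genes at E18.5 (55.4% of all genes), 84 at P1 (54.3%), 83 at P6 (56.8%) and 88 at P7 (60.3%). It marked 88 in PRC1ctrl P6 (55.1% of all genes), 85 in PRC1ctrl P7 (54.7%), 87 in PRC1cKO P6 (55.2%) and 83 in PRC1cKO P7 (55%). It marked 85 in PRC2ctrl P6 (55.3%) and 82 in PRC2cKO P6 (48.3%), the lowest number of the 10 lists. As percentages of the 91 genes these counts lay between 90.1 and 96.7, above the share of all genes in every list.

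H2AK119ub marked 89 genes in WT at E18.5 (79.2% of all genes), 89 at P1 (72.1%), 89 at P6 (77.9%) and 84 at P7 (63.4%). It marked 89 in PRC2ctrl P6 (72%) and 87 in PRC2cKO P6 (71.1%). Both marks lay on 84 genes at E18.5 (48.9% of all genes), 84 at P1 (47.5%), 83 at P6 (51.3%) and 83 at P7 (51.6%) in WT, on 84 in PRC2ctrl (48.4%) and on 80 in PRC2cKO (41%). In WT, H3K27me3 alone lay on 0 genes at E18.5 (6.45% of all genes), 0 at P1 (6.75%), 0 at P6 (5.46%) and 5 at P7 (8.72%). H2AK119ub alone lay on 5 genes at E18.5 (30.2%), 5 at P1 (24.6%), 6 at P6 (26.6%) and 1 at P7 (11.8%). The 5 genes with H3K27me3 alone at P7 were Kcne2, Kcnj16, Kcnj2, Kcnk7 and Kcnmb1, and the gene with H2AK119ub alone was Kcnh1. In these lists made from many oocytes, fewer marked cells and less mark in each cell cannot be told apart.

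Most windows were covered in part, and a few almost not at all, such as Kcnb2 with 17.56 kb and Kcnt2 with 0 kb of H3K27me3 in WT P6. The median covered share of a window by H3K27me3 in WT was 49.3% at E18.5, 52.3% at P1, 66.2% at P6 and 74.2% at P7, against medians of 4.1%, 3.55%, 5.59% and 8.58% over all genes. By H2AK119ub it was 85.9%, 79.1%, 87.5% and 36.7%, against 38%, 24.4%, 37.5% and 5.93%. Taken over the summed length of all windows, which gives long genes more weight, the gap was smaller. The summed share in WT P6 was 32.9% against 20.2% for H3K27me3, and 40.6% against 35.5% for H2AK119ub. At the other stages the summed H2AK119ub share was 39.2% against 35.5% (E18.5), 37.7% against 28.8% (P1) and 16.7% against 12.9% (P7). The windows of the potassium channel genes were longer, with a median of 42.9 kb against 27.5 kb. Among the 29 with windows up to 27.5 kb the median H3K27me3 share in WT P6 was 86.7%, against 9.93% for all genes of that length, and among the 62 longer ones it was 41.2% against 4.35%.

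**Figure D2:**
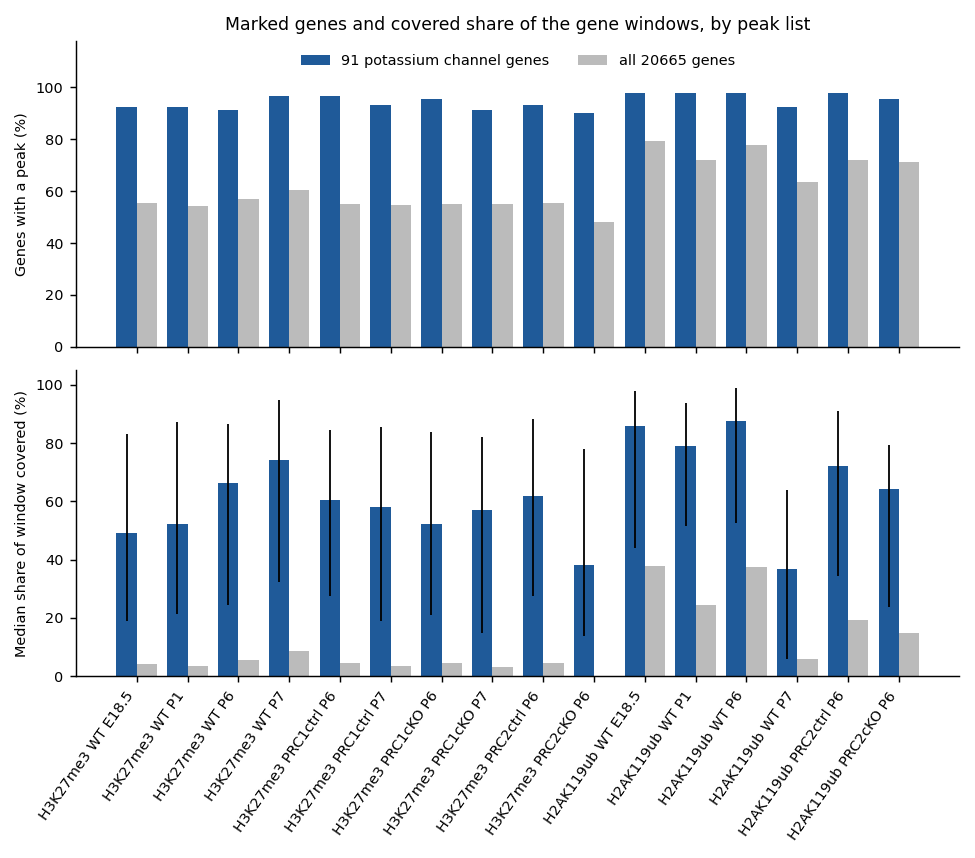
Upper panel, share of genes marked in each of the 16 lists (%). Lower panel, median covered share of the gene window (%), with vertical lines from the lower to the upper quartile for the potassium channel genes. Blue bars stand for the 91 potassium channel genes and grey bars for all 20665 genes. The blue bars of the upper panel lie between 90.1% and 97.8%, and the lowest blue medians are those of H3K27me3 in PRC2cKO P6 (38.1%) and of H2AK119ub in WT P7 (36.7%).

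Most of the set was marked without exception, and a few genes stood apart. H3K27me3 marked 77 genes in all 10 of its lists (36% of all genes), H2AK119ub marked 83 in all 6 (54.6%), and 73 genes were marked in all 16 lists (31.7%). Kcnj13 was marked in none. Kcnrg, which encodes a soluble protein reported to regulate potassium channels, had only a stretch of 3.82 kb of H2AK119ub in PRC2ctrl. Kcnk5, Kcnk7, a two-pore-domain subunit, and Kcnip2, a calcium-binding partner of voltage-gated channels, had H3K27me3 in 3 of 10 lists each, and H2AK119ub in 6, 5 and 6. Kcnh1, a voltage-gated subunit of the ether-à-go-go type, had H3K27me3 in 5 lists, and Kcng3 and the two-pore-domain gene Kcnk1 in 6.

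**Figure D3:**
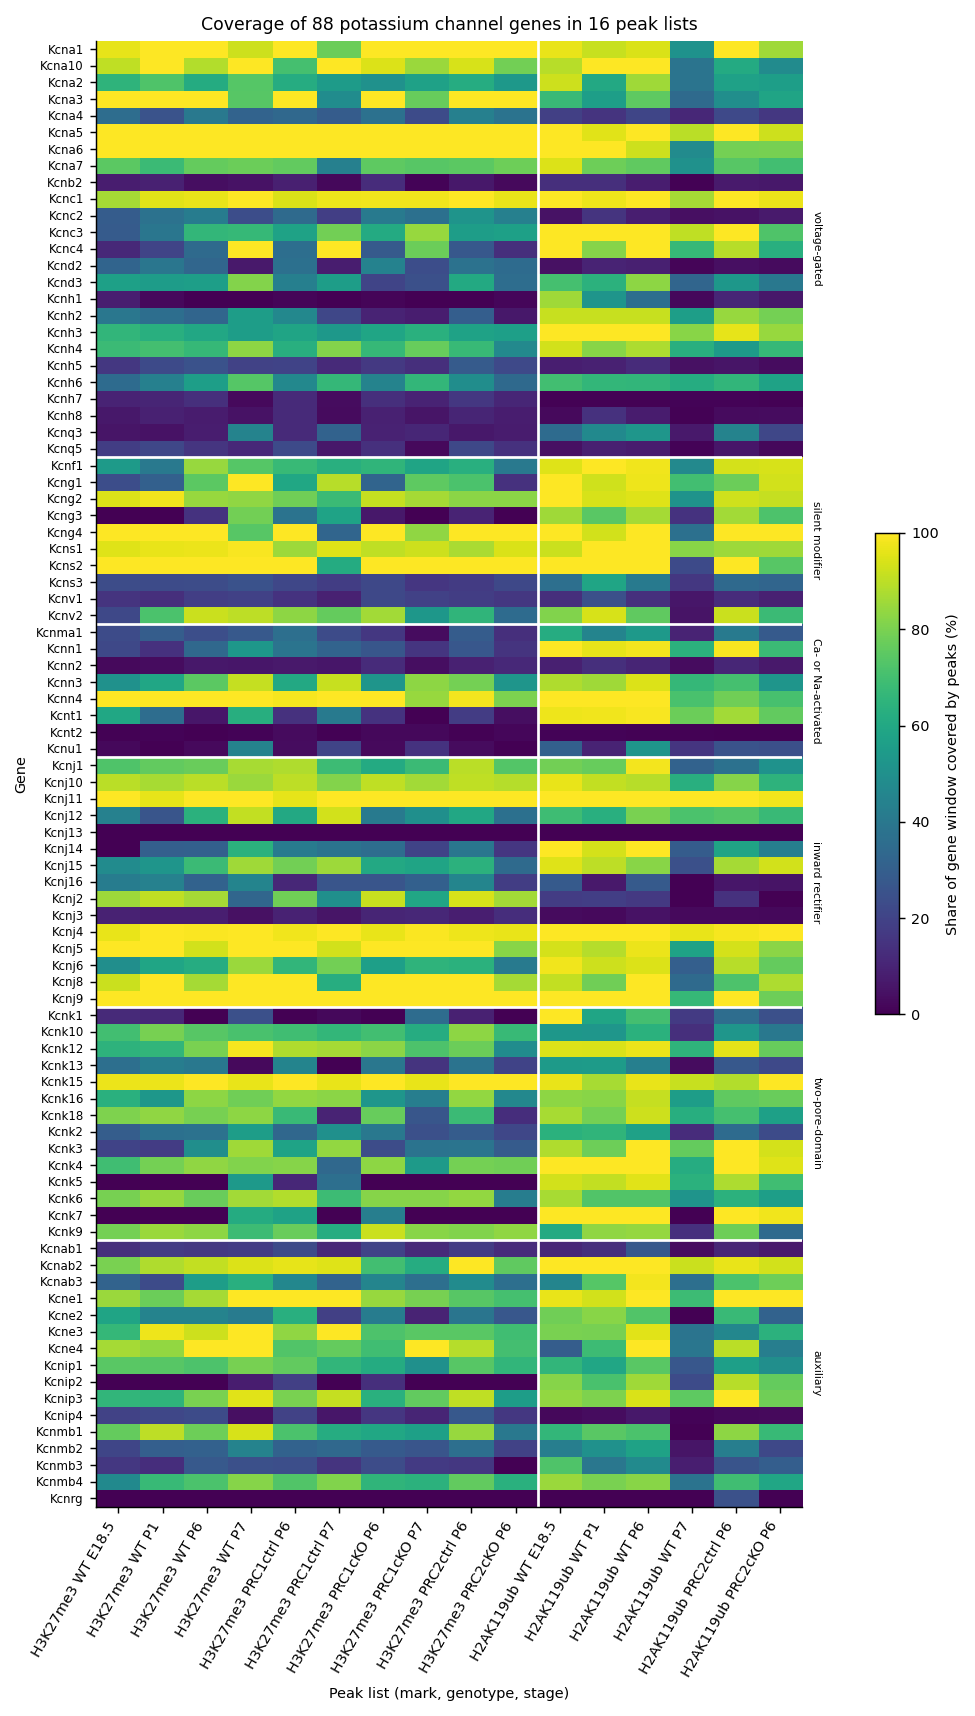
Covered share of the gene window (colour, 0 to 100%) for 88 of the 91 potassium channel genes (rows, grouped by kind of subunit) in the 16 lists (columns, H3K27me3 left of the white line and H2AK119ub right of it). Kcna5 and Kcnj9 are at 100% in all H3K27me3 columns, Kcnj13 is at 0% throughout, and the H2AK119ub WT P7 column is darker than the other H2AK119ub columns.

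The voltage-gated pore subunits ranged from windows fully inside peaks to windows almost free of them. Of the 28 genes, 27 had H3K27me3 and 28 had H2AK119ub in WT P6, with median covered shares of 58.2% and 84.3%. Kcna5, a channel of the delayed rectifier type, was covered over its whole 13 kb window in all 10 H3K27me3 lists. Kcna1, of the same subfamily and important in axons, was covered by H3K27me3 over 77.4% of its window in PRC1ctrl P7, 92.3% in WT P7, 96.3% in WT E18.5 and 100% in the other 7 lists. These genes lie 100.9 kb apart on chromosome 6, and a single H3K27me3 peak of 193.11 kb spanned both in WT P6. Such a shared peak was present in 5 of the 16 lists, so their values there are not independent.

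Kcna2 and Kcnh1 differed widely. H3K27me3 covered Kcna2, another axonal subunit, over 64.9%, 72.5%, 61.7% and 73.8% of its window at E18.5, P1, P6 and P7 in WT. Kcnh1 carried 27.85 kb of H3K27me3 at E18.5, 7.84 kb at P1 and none at P6 or P7, and its H2AK119ub went from 284.28 to 172.82, 119.02 and 7.75 kb. At Kcnh1 in WT both marks were thus shorter at each later stage until H3K27me3 was no longer found. Other P6 lists held 3.85 kb (PRC1ctrl), 4.66 kb (PRC1cKO), 6.41 kb (PRC2cKO) and 0 kb (PRC2ctrl) of H3K27me3 there. The WT P7 list of H2AK119ub covered 244.2 Mb of the genome against 728.3 Mb at P6, which limits the last H2AK119ub step.

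The 10 silent modifier genes, whose products form channels only together with other subunits, were all marked by both marks in WT P6, with median covered shares of 84.5% and 96.3%. Kcns2 was covered by H3K27me3 over its whole 16.05 kb window in 9 of 10 lists and over 9.9 kb in PRC1ctrl P7. Kcnv1 was at the low end, with 2.73 to 6.47 kb of H3K27me3 in a window of 29.83 kb.

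The 8 genes grouped as calcium- or sodium-activated had the lowest median H3K27me3 share of the 6 kinds of subunit in WT P6, 15.1%. Their median H2AK119ub share was 74.5%. Kcnn4, the intermediate-conductance channel of blood cells and epithelia, was covered by H3K27me3 over 80.3% to 100% of its window in all lists. Kcnu1, a potassium channel of sperm, had 2 kb of H3K27me3 in WT at E18.5, none at P1, 2.41 kb at P6 and 44.62 kb at P7. Kcnma1, the large-conductance calcium-activated channel, has a window of 722.82 kb on chromosome 14 and carried 166.58, 212.07, 172.96 and 201.92 kb at the 4 WT stages. Within this kind of subunit the long genes Kcnn2 and Kcnt2 had 27.13 and 0 kb in WT P6.

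The 15 inward rectifiers, which carry current best at negative potentials, included the most fully marked windows. Kcnj9, a G protein-gated subunit, was covered by H3K27me3 over its whole 18.82 kb window in all 10 lists. It shared a peak with Kcnj10, a channel of glia, in 15 of 16 lists, and that H3K27me3 peak was 99.79 to 103.88 kb wide in every list. Kcnj11, the pore of ATP-sensitive channels in beta cells, was covered over 96.1% to 100% of its window by H3K27me3 and 97.8% to 100% by H2AK119ub. Kcnj2, the strong rectifier of muscle, had the reverse balance, with 85.5% to 90.4% of its window under H3K27me3 in WT up to P6 but 17.9% at E18.5 and 16.6% at P6 under H2AK119ub in WT.

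All 14 two-pore-domain genes, which carry background potassium current, had H2AK119ub in WT P6 and 11 had H3K27me3. Kcnk9, an acid-sensitive channel of neurons, was covered by H3K27me3 over 62% to 91.9% of its window across the 10 lists. Kcnk2, a channel opened by stretch and lipids, was covered over 21.1% to 55.5%. The 16 auxiliary genes had median shares of 63.7% for H3K27me3 and 78.2% for H2AK119ub in WT P6. Kcnip1, a calcium-binding partner of voltage-gated channels, carried 188.1 to 296.66 kb of H3K27me3 in its 374.01 kb window. Kcnmb1 lies inside Kcnip1, and both shared a peak in 15 lists.

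The peaks on these genes ranked high within their lists. Each list gives a total signal and a highest signal for every peak, which are the authors' own values. Their scaling is unknown, so they served only to rank peaks within a list. The strongest peak on a marked potassium channel gene had a median percentile by total signal between 92.6 and 96.4 in the 10 H3K27me3 lists, against 85.1 to 88.6 for all marked genes. In the 6 H2AK119ub lists the ranges were 94.6 to 96.3 and 80.4 to 88.6. By highest signal they were 91.5 to 96.9 against 83.7 to 88.7 for H3K27me3 and 90.8 to 96.5 against 80.7 to 89.6 for H2AK119ub. These percentiles were not split by window length.

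In WT P6 the highest total H3K27me3 signal was 2513786, on the peak shared by Kcna1 and Kcna5, followed by 2284367 on that shared by Kcnj9 and Kcnj10 and 1898483 on Kcnip1. The highest point signals were 99 on Kcnj3, a G protein-gated rectifier, 94 on Kcna6, 90 on Kcnf1, 87 on Kcnh5, 84 on Kcnip1 and 82 on Kcns3. Kcnip1 was thus high by both measures, while the widest of the Kcnj3 peaks measured 6.63 kb. For H2AK119ub in WT P6 the highest total signals were 2881684 on Kcnab2, a cytoplasmic beta subunit under a peak of 267.35 kb, and 2464890 on Kcnj11 under 200.21 kb. Kcnn1 followed with 1588513, Kcne1 with 1495917 and the peak shared by Kcna1 and Kcna5 with 1365447. The highest point signal of H2AK119ub was on Kcnq5, whose widest peak measured 7.66 kb, followed by 85 on Kcnk12, 74 on Kcns3, 73 on Kcnv1, 72 on Kcnk2 and 69 on Kcnc1.

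Changes between lists were called by size. Coverage fell where the covered length was at most 50% of the first value and at least 2 kb shorter, and it rose where it was at least 2 times the first value and at least 2 kb longer. From E18.5 to P1, H3K27me3 fell at 1 gene, Kcnh1 (4.09% of all genes fell), and rose at 2 (4.39% rose), Kcnv2 from 5.48 to 17.97 kb and Kcnj14 from 0 to 5.54 kb. From P1 to P6 it fell at 5 genes (5.3%) and rose at 9 (8.87%). The falls were Kcnb2 (40.97 to 17.56 kb), Kcnt1 (23.11 to 3.91 kb), Kcnh1, Kcnk1 (5.22 to 0 kb) and Kcnt2 (3.43 to 0 kb). The largest rises were Kcnj12 (16.01 to 38.74 kb), Kcnk3 (8.4 to 23.25 kb), Kcng1 (9.57 to 23.51 kb), Kcng3 (0 to 10.05 kb), Kcnmb3 (6.16 to 13.37 kb) and Kcnf1 (5.96 to 12.49 kb). As shares of the 91 genes these were 5.49% and 9.89%, close to those of all genes.

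H2AK119ub changed at few of these genes before P6. From E18.5 to P1 it fell at 2 genes (19.8% of all genes fell), Kcnu1 from 30.36 to 9.72 kb and Kcnj16 from 19.94 to 4.65 kb. It rose at 5 (3.91%), Kcnh8 from 10.34 to 55.28 kb, Kcnd2 from 23.65 to 52.49 kb, Kcnq5 from 24.9 to 50 kb, Kcnc2 from 10.16 to 30.91 kb and Kcne4 from 3.86 to 8.99 kb. From P1 to P6 it fell at 0 genes (4.73%) and rose at 5 (19.1%), Kcnab1 from 59.69 to 121.73 kb, Kcnu1 from 9.72 to 51.98 kb, Kcnip4 from 37.79 to 75.92 kb, Kcnj16 from 4.65 to 19.8 kb and Kcnj3 from 4.8 to 9.82 kb. With the longer list cut to its strongest peaks at an equal covered length, the E18.5 to P1 step had 1 fall (14.5% of all genes) and 11 rises (6.91%). The P1 to P6 step then had 11 falls (11.6%) and 3 rises (11.1%), so its direction turned, and Kcnip4 had a loss of 24.7 kb. The rise at Kcnq5 from E18.5 to P1 turned to a difference of -3.61 kb when the upper 50% of peaks by total signal was used. A window already nearly full cannot rise by 2 times, and these windows were fuller than most.

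From P6 to P7 in WT, H2AK119ub fell at 48 genes (51.4% of all genes) and rose at 0 (1.26%). The P7 list covered 244.2 Mb of the genome and the P6 list 728.3 Mb, and its median peak was 2.19 kb wide against 7 kb. With the P6 list cut to its strongest peaks at an equal covered length, 15 genes fell (10.6% of all genes) and 27 rose (27.9%), so the direction of this step depends on how the lists are set against each other. The largest falls by length were Kcnma1 (390.42 to 72.82 kb), Kcnip1 (278.2 to 102.1 kb), Kcnj6 (248.88 to 79.97 kb), Kcnmb2 (177.23 to 17.42 kb), Kcnq3 (163.56 to 20.89 kb) and Kcnd3 (192.38 to 75.58 kb). Those at Kcnmb2, Kcnq3 and Kcnd3 no longer passed the rule at equal covered length, with differences of -8.56, -9.79 and -29.23 kb.

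From P6 to P7 in WT, H3K27me3 fell at 5 genes (8.67% of all genes) and rose at 11 (16.6%). As shares of the 91 genes these were 5.49% and 12.1%, so changes were no more frequent than over all genes, and the summed covered length was 1.05 times that at P6 for these genes and 1.23 times for all genes. The WT P7 list covered 618.8 Mb against 532.5 Mb. The 5 falls and the 6 largest rises passed the rule at equal covered length as well, where 10 genes fell (12.1% of all genes) and 9 rose (12.6%). In PRC1ctrl the same step gave 17 falls (13.3%) and 6 rises (11.6%), and in PRC1cKO 12 falls (12.6%) and 4 rises (7.3%).

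The largest falls were on long neuronal genes. Kcnip4, another calcium-binding partner of voltage-gated channels with a window of 1145.62 kb on chromosome 5, carried 261.43 kb of H3K27me3 in WT P6 and 48.15 kb in WT P7, 226.27 and 68.04 kb in PRC1ctrl, and 183.5 and 118.77 kb in PRC1cKO. Kcnd2, whose promoter is shown above and which spans 514.46 kb, carried 172.39 and 35.86 kb in WT, 194.23 and 41.62 kb in PRC1ctrl, and 232 and 125.06 kb in PRC1cKO. Kcnh7, a voltage-gated subunit related to Kcnh2, carried 68.07 and 12.74 kb, 60 and 17.46 kb, and 67.75 and 50.18 kb. At these 3 genes the P7 list of each control was below every P6 list and PRC1cKO P7 lay in between. The drop at Kcnd2 lay in many small peaks, 36 at P6 and 8 at P7 in WT, while its promoter remained under a peak in every list.

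Kcnk13, a two-pore-domain channel of microglia, carried 43.87 kb in WT P6 and 2.59 kb in P7, 49.26 and 0 kb in PRC1ctrl, and 43.28 and 16.58 kb in PRC1cKO. Kcnj2 went from 17.85 to 6.84 kb in WT, from 16.18 to 10.31 kb in PRC1ctrl and from 18.93 to 12.24 kb in PRC1cKO, so only the WT step passed the rule there. The other largest falls of PRC1ctrl were at Kcnq5 (127.96 to 35.9 kb) and Kcnh8 (45.81 to 11.55 kb). Those of PRC1cKO were at Kcnma1 (118.46 to 24.45 kb), Kcnq5 (80.46 to 14.52 kb), Kcnb2 (56.59 to 5.1 kb), Kcnn2 (52.49 to 16.67 kb), Kcnk13 and Kcnk18 (21.32 to 7.41 kb).

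A rise by the rule needs at least 2 times the first length, so genes well covered at P6 could not be called. Among those not called, Kcnj6, a G protein-gated rectifier, went from 162.67 to 223.1 kb and Kcnd3 from 130.4 to 189.15 kb in WT, which are larger differences than most of the rises called. Of the called genes, Kcnq3, a voltage-gated subunit of neurons, carried 25.44 kb in WT P6 and 138.56 kb in WT P7, 37.37 and 97.12 kb in PRC1ctrl, and 29.76 and 33.4 kb in PRC1cKO. Kcng3 carried 10.05 and 53.5 kb in WT, 25.76 and 39.5 kb in PRC1ctrl, and 4.46 and 0 kb in PRC1cKO. Kcnk5 carried 0 and 27.78 kb in WT, 5.69 and 18.81 kb in PRC1ctrl, and none at either stage in PRC1cKO. At these 3 genes both P7 controls were above every P6 list, while PRC1cKO P7 was not. As described with the promoters above, H3K27me3 on the Kcnk5 promoter was found only in WT P7 and PRC1ctrl P7.

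Other rises showed the same order or not. Kcnt1, a sodium-activated channel, carried 3.91 and 40.49 kb in WT, 9.29 and 26.39 kb in PRC1ctrl, and 9.36 and 0 kb in PRC1cKO. Kcnu1 carried 2.41 and 44.62 kb, 3.14 and 20.6 kb, and 2.62 and 14.6 kb, so it rose in all 3 genotypes. Kcnc4, a fast voltage-gated subunit, went from 11.11 to 31.99 kb, from 11.5 to 31.99 kb and from 9.13 to 24.79 kb, and its window was then fully covered in both controls. Kcnk1 rose from 0 to 11.42 kb in WT and from 0 to 16.6 kb in PRC1cKO, and had 0 and 0.96 kb in PRC1ctrl. The small rises in WT at Kcnk7, Kcnip2 and Kcnt2 (to 8.33, 2.75 and 3.07 kb, each from 0) were falls in PRC1ctrl (7.77, 6.43 and 11.24 kb to 0, 0 and 1.51 kb), so they were not shared by the controls. Kcnj16 rose in PRC1ctrl (7.69 to 18.35 kb), and Kcng1 rose in PRC1cKO (10.14 to 23.67 kb).

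**Figure D4:**
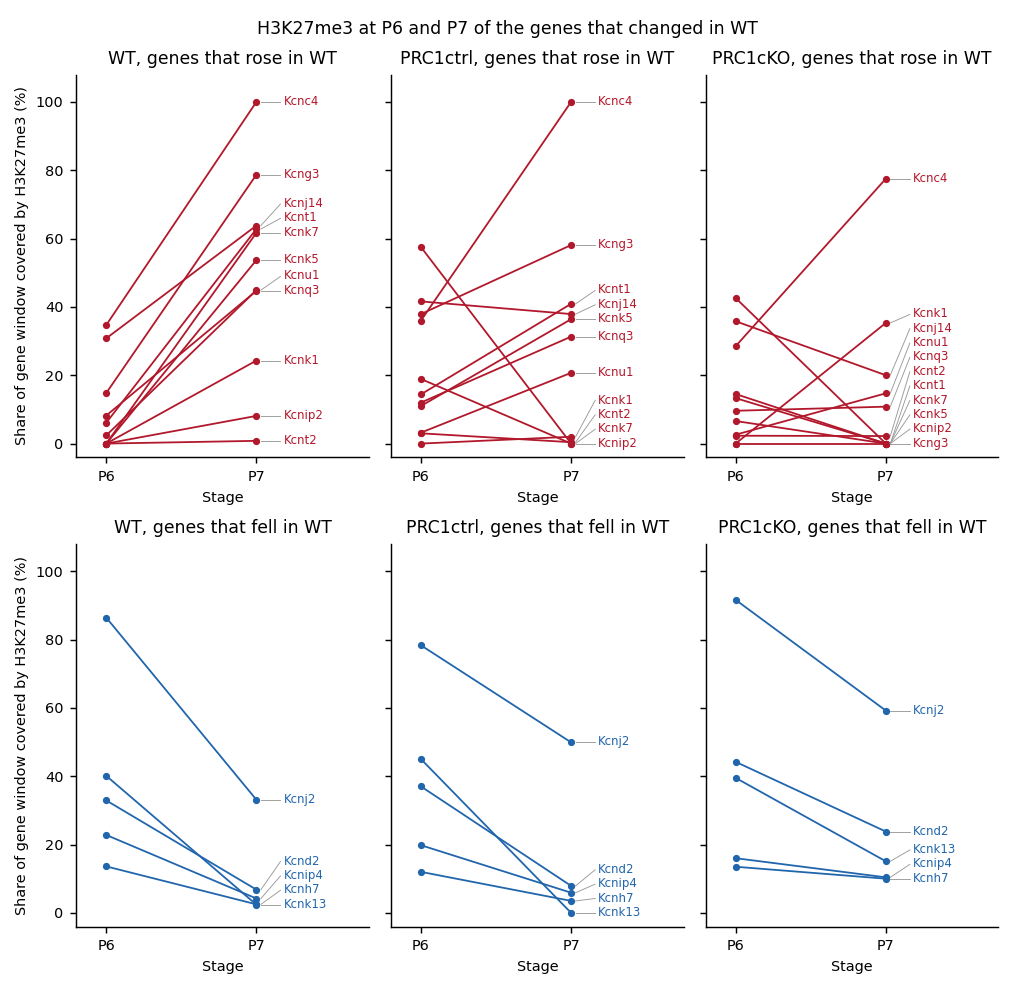
Share of the gene window covered by H3K27me3 (vertical axis, %) at P6 and P7 in WT, PRC1ctrl and PRC1cKO oocytes, for the 11 genes that rose (red, upper row) and the 5 that fell (blue, lower row) in WT. Lines join the 2 lists of a gene. In the PRC1cKO panel Kcng3, Kcnk5 and Kcnt1 end at 0%, and Kcnd2 ends at 23.8% against 6.8% in WT and 7.9% in PRC1ctrl.

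Across the 91 genes the H2AK119ub covered share in WT P6 and the H3K27me3 difference from P6 to P7 in WT had a Spearman correlation of 0.27, against 0.29 across all 20665 genes. Genes are not independent replicates, and both measures of a gene share its window. Kcnd2, Kcnip4, Kcnh7 and Kcnj2, which fell in WT, were among 14 genes with some H2AK119ub but over at most 25% of the window in WT P6. Genes without any H2AK119ub there were left out of this group, here and over all genes. These 14 genes held 4 of the 5 falls and 1 of the 11 rises. Over all genes, 412 of the 4178 with some H2AK119ub but at most 25% fell and 758 rose, so falls did not outnumber rises there. The limit of 25% was chosen after the values were seen. The 14 genes had long windows, with a median of 382 kb against 32.3 kb for the 56 genes with at least 75%, and length and H2AK119ub cannot be told apart here.

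Between PRC1cKO and PRC1ctrl at P6 few genes differed. H3K27me3 fell at 6 genes (7.38% of all genes) and rose at 1 (5.86%). The falls were Kcnma1 (262.8 to 118.46 kb), Kcnd3, a voltage-gated subunit of heart and brain (100.38 to 47.39 kb), Kcng3 (25.76 to 4.46 kb), Kcnk3, an acid-sensitive two-pore-domain channel (27.42 to 10.9 kb), Kcnh2, the rapid delayed rectifier of the heart (19.7 to 4.12 kb), and Kcnk5 (5.69 to 0 kb). The rise was Kcnj16 (7.69 to 18.38 kb), whose PRC1ctrl value lay below WT (22.04 kb) and PRC2ctrl (31.74 kb). Against the lowest of the 3 P6 controls, PRC1cKO was below by the rule at 2 genes (3.42% of all genes), Kcnd3 and Kcnh2, and it was above the highest at 0 (2.29%).

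At P7 the difference was larger and ran both ways. H3K27me3 in PRC1cKO fell against PRC1ctrl at 11 genes (13.6% of all genes) and rose at 8 (9.77%). The largest falls were Kcnma1 (164.59 to 24.45 kb, with 201.92 kb in WT), Kcnd3 (128.87 to 56.5 kb, with 189.15 kb in WT) and Kcnq3 (97.12 to 33.4 kb, with 138.56 kb in WT). Kcnk2 followed (102.8 to 50.21 kb, with 113.65 kb in WT), then Kcng3 (39.5 to 0 kb) and Kcnt1 (26.39 to 0 kb). The call at Kcnk2 was lost at equal covered length, with a difference of -49.81 kb. The rises were Kcnd2 (41.62 to 125.06 kb), Kcnh7 (17.46 to 50.18 kb), Kcnk13 (0 to 16.58 kb), Kcnk1 (0.96 to 16.6 kb), Kcng4 (7.16 to 18.19 kb), Kcnt2 (1.51 to 8.47 kb), Kcnk18 (2.79 to 7.41 kb) and Kcnv1 (2.73 to 5.72 kb).

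Set against both P7 controls, PRC1cKO lay below by the rule at 11 genes (12.4% of all genes) and above at 4 (5.13%), Kcnd2, Kcnh7, Kcnk13 and Kcnt2. These shares of the 91 genes, 12.1% and 4.4%, were close to those of all genes. Across the 91 genes the H2AK119ub covered share in WT P6 and the H3K27me3 difference between PRC1cKO and PRC1ctrl at P7 had a Spearman correlation of -0.13, against -0.2 across all genes. Of the 8 rises, 4 were among the 14 genes with some H2AK119ub but at most 25% of the window under it, namely Kcnd2, Kcnh7, Kcnt2 and Kcnv1. Kcnq5, also of these 14, went the other way, from 35.9 to 14.52 kb. Over all genes, 523 of the 4178 with some H2AK119ub but at most 25% rose and 476 fell, so rises and falls were about as frequent there. The limit of 25% was chosen after the values were seen, and a link to H2AK119ub was not tested.

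**Figure D5:**
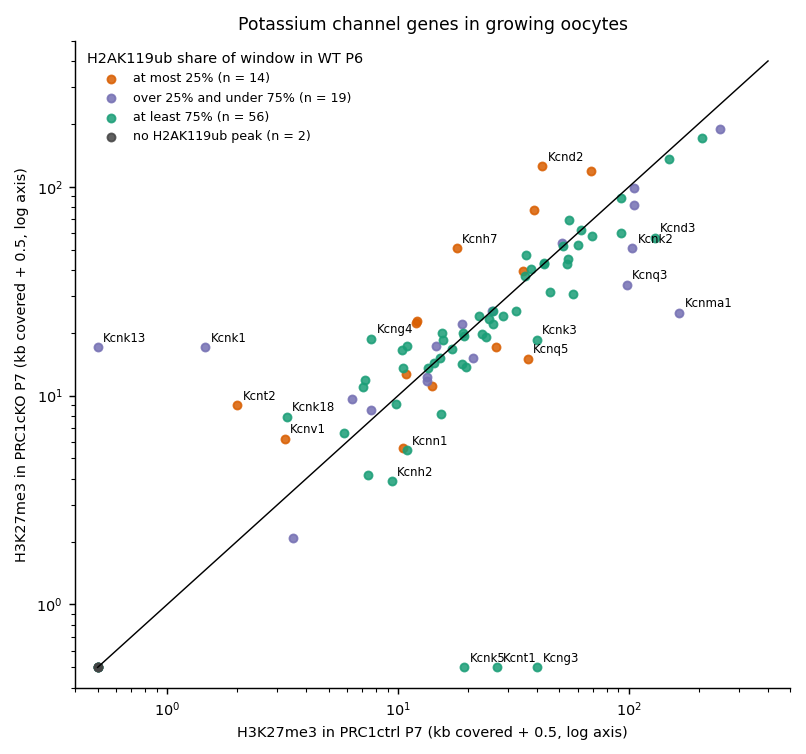
H3K27me3 covered length in PRC1cKO P7 (vertical axis) against PRC1ctrl P7 (horizontal axis), both in kb plus 0.5 on log axes, 1 point for each of the 91 potassium channel genes, coloured by the share of the window under H2AK119ub in WT P6. The line marks equal values and names are those of the 11 genes that fell and the 8 that rose. Kcng3, Kcnt1 and Kcnk5 lie at the bottom, at 0 kb in PRC1cKO, and Kcnd2 and Kcnh7 lie above the line.

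PRC2cKO oocytes at P6 had less H3K27me3 on these genes, by about as much as on others. It fell against PRC2ctrl at 14 genes (15.4% of all genes) and rose at 2 (2.07%). The summed covered length was 0.744 times that of PRC2ctrl for the potassium channel genes and 0.73 times for all genes, and 66 of the 91 were lower and 11 higher. The largest falls were Kcnma1 (209.6 to 97.11 kb), Kcnj16 (31.74 to 12.6 kb), Kcng1 (22.54 to 4.52 kb), Kcnb2 (29.17 to 12.07 kb), Kcnk18, a two-pore-domain channel of sensory neurons (18.84 to 3.64 kb), and Kcnh2 (12.54 to 2.76 kb). The rises were Kcnh1 (0 to 6.41 kb) and Kcnt2 (2.79 to 6.4 kb). At equal covered length 6 genes fell (7.11% of all genes) and 7 rose (7.2%), the calls at Kcnma1 and Kcnj16 were lost, and Kcnb2 was 12.07 kb longer. The PRC2ctrl list covered 558.4 Mb and the PRC2cKO list 428.6 Mb.

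Against the lowest of the 3 P6 controls, H3K27me3 in PRC2cKO was below by the rule at 7 genes (9.18% of all genes) and above the highest at 0 (0.866%). The 7 were Kcnk18, Kcng1, Kcnh2, Kcnmb3, Kcng3, Kcnc4 and Kcnu1. Kcnh2, Kcng3 and Kcnc4 were thus low in PRC2cKO P6, with 2.76, 0 and 4.28 kb. Kcnh2 was low in PRC1cKO P6 as well, with 4.12 kb, against 12.54 to 19.7 kb in the 3 controls. Several windows kept all of their coverage, among them Kcna1, Kcna3, Kcna5, Kcna6, Kcng4, Kcnj9 and Kcns2, all at 100% in PRC2ctrl and PRC2cKO. Losses beyond the edges of a full window are not seen in this measure. The widest peak on each gene named was narrower in PRC2cKO than in PRC2ctrl. The difference ranged from 177.36 against 62.14 kb at Kcna6 to 102.17 against 101.42 kb at Kcnj9. Kcnk15, not named there, was also at 100% in both lists. Its widest peak was wider in PRC2cKO, with 24.46 kb against 23.58 kb in PRC2ctrl.

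H2AK119ub in PRC2cKO fell against PRC2ctrl at 7 genes (11.4% of all genes) and rose at 0 (5.54%). The largest falls were Kcnq3 (138.67 to 66.39 kb), Kcnk9 (44.28 to 19.52 kb), Kcnq5 (33.74 to 12.25 kb), Kcne4 (11.76 to 5.59 kb), Kcne2 (10.7 to 4.94 kb) and Kcnrg (3.82 to 0 kb). Kcne2 and Kcne4 encode small beta subunits. At equal covered length 3 genes fell (4.78% of all genes) and 8 rose (16.1%), the calls at Kcnq3 and Kcnrg were lost, and Kcnq5 was 1.33 kb longer. Over the gene span without flanks Kcne2 was 0.76 kb longer. Below both controls by the rule were 6 genes (8.96%), Kcnq3, Kcnk9, Kcnq5, Kcne4, Kcne2 and Kcnj2, and 0 were above (1.06%).

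The controls themselves differed. For H3K27me3 at P6, PRC1ctrl against WT had 1 fall (6.22% of all genes) and 8 rises (4.99%), PRC2ctrl against WT had 0 falls (4.32%) and 3 rises (3.53%), and PRC2ctrl against PRC1ctrl had 6 falls (5.71%) and 2 rises (6.15%). At P7, PRC1ctrl against WT had 12 falls (12.2%) and 0 rises (1.91%), among them Kcnu1 (44.62 to 20.6 kb), Kcnk18 (23.03 to 2.79 kb) and Kcnh2 (23.37 to 8.87 kb). For H2AK119ub at P6, PRC2ctrl against WT had 11 falls (22.1%) and 2 rises (2.8%), with Kcnh1 at 119.02 and 36.05 kb and Kcnab1 at 121.73 and 47.85 kb. The 6 falls of PRC1cKO at P6 and the 7 falls of H2AK119ub in PRC2cKO were therefore no more numerous than differences found between controls. The 14 falls of H3K27me3 in PRC2cKO exceeded the most changes in 1 direction between P6 controls, which was 8, but the 6 falls left at equal covered length did not, and the 11 at P7 in PRC1cKO did not exceed the 12 between the P7 controls.

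Related channel genes were mostly marked as well. In WT P6 H3K27me3 marked all 14 Scn sodium channel genes, all 25 Cacn calcium channel genes and all 4 Hcn pacemaker genes. It also marked all 9 genes of known partner proteins of potassium channels, against 56.8% of all genes. Median covered shares in this order were 75.8%, 64.4%, 55.8% and 64.2%. In WT P7 H3K27me3 marked 12 of the 14 Scn genes (60.3% of all genes). H2AK119ub in WT E18.5 marked 11 of the 14 Scn genes (79.2% of all genes) and every gene of the other lists. From P6 to P7 in WT, H3K27me3 fell at 3 Scn, 2 Cacn, 1 Hcn and 2 partner genes (8.67% of all genes fell). It rose at 1, 2, 0 and 1 (16.6% of all genes rose). Dpp10, which encodes a surface partner of the Kcnd2 channel, was among those that fell, and it rose in PRC1cKO against PRC1ctrl at P7. Its relative Dpp6 rose from P6 to P7 in WT and fell in PRC1cKO against PRC1ctrl at P7.

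Across the series the lists held 49615 to 83994 peaks and covered 244.2 to 728.3 Mb, while the number of reads behind each list is unknown. The lowest total signal of a peak lay between 3754 and 20369, so the lists did not reach down to the same value. Marker genes were read as a check of the labelled cell type. H3K27me3 in WT P6 marked 2 of 9 autosomal oocyte marker genes, against 56.8% of all genes. It marked 8 of 8 granulosa cell, 6 of 6 ovarian stroma and 4 of 6 blood and endothelium marker genes. In WT E18.5 it marked 7 of the 9 oocyte marker genes (55.4% of all genes). H2AK119ub in WT P6 marked 8 of the 9 and every gene of the other marker lists (77.9%), so it did not set them apart.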

How the data were processed

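CUT&Tag of oocytes was carried out with a protein A/G-Tn5 transposase and with Drosophila S2 cells added at 2000 per 1000 oocytes, per the labels' protocols. Per the submitters' processing notes, the tools were Bowtie2, SAMtools, deepTools, Picard 3.0.0 and Trim Galore 0.6.10, with the builds GRCm38, mm10 and dm6. The peak caller, its threshold, the pooling of the 2 samples of a group and any spike-in scaling were not given in the sources used here. Each of the 16 deposited lists holds peak positions with the total signal and the highest signal of each peak, as made by the authors. The read depth is unknown, so no interval is given, and no test was possible with 1 list per group.

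Peaks were intersected with gene windows on the 19 autosomes in Python 3.11.15 with pandas 2.3.3 and numpy 2.4.6, and the code was checked on simulated data. The genes, gene lists and rules were chosen with earlier results of these data known. Genes were named where they lay in no list of a mark, had up to 6 of the largest falls or rises of a comparison, had 6 of the highest signals or the widest peaks in WT P6, or lay beyond every control in a knockout. Of a set fixed by name, those reported are Kcna1, Kcna2, Kcnh1, Kcnh2, Kcnma1, Kcnn4, Kcnu1, Kcnj2, Kcnj11, Kcnk2 and Kcnk9, the remaining genes are not reported here, and a few others were chosen after their values were seen, among them Kcna10, Kcnv1 and Kcns2. Alternatives were a 500 bp overlap, the gene span without flanks, 1 kb around gene ends, the upper 50% of peaks by total signal, and equal covered length.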

Additional observations from a re-analysis of the deposited data

Results flagged for a closer look

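Kcnt1 moved in opposite directions from P6 to P7 in the 2 PRC1 genotypes. Its H3K27me3 covered length in PRC1cKO was 9.36 kb at P6 and 0 kb at P7, a difference of -9.36 kb, while it rose from 9.29 to 26.39 kb in PRC1ctrl and from 3.91 to 40.49 kb in WT. The difference between genotypes was not tested, because each value comes from 1 list.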

How the results depend on the processing

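Of 184 counts of potassium channel genes recomputed under 5 alternatives, 145 were within 1.5 times the reported count, among them all 40 under a 500 bp overlap. Shares of all genes were computed only at equal covered length, and there only for the comparisons given with them above. The other counts below thus have no share to be read against and describe only how the calls moved. With equal covered length, H3K27me3 fell at 4 genes from E18.5 to P1 and at 10 from P6 to P7. H2AK119ub then fell at 1 and rose at 11 from E18.5 to P1, fell at 11 and rose at 3 from P1 to P6, and fell at 15 and rose at 27 from P6 to P7. PRC1cKO P6 then had 0 rises, PRC2cKO had 6 falls and 7 rises of H3K27me3, and 3 falls and 8 rises of H2AK119ub. With the upper 50% of peaks, H3K27me3 fell at 7 and rose at 5 from E18.5 to P1, fell at 2 from P1 to P6 and fell at 12 from P6 to P7. H2AK119ub then fell at 5 in both the E18.5 to P1 and the P1 to P6 step, and rises numbered 3 in PRC1cKO P6, 14 in PRC1cKO P7 and 0 for H3K27me3 in PRC2cKO. Within 1 kb of gene ends, where at most 2 short pieces are read, H3K27me3 rose at 4 from E18.5 to P1 and fell at 2 in each later step. H2AK119ub then fell at 4 and rose at 1 from E18.5 to P1 and fell at 1 and rose at 2 from P1 to P6. The gene ends gave 3 rises in PRC1cKO P6, 5 falls and 3 rises in PRC1cKO P7 and 0 rises of H3K27me3 in PRC2cKO. Without flanks, rises numbered 2 in PRC1cKO P6 and 1 for H2AK119ub in PRC2cKO.

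Of 98 named changes, 84 passed the rule at equal covered length, 82 with the upper 50% of peaks, 89 without flanks, 98 with a 500 bp overlap and 32 at gene ends. The differences that changed sign at gene ends were Kcnq5 (-0.61 kb of H2AK119ub from E18.5 to P1, 0.12 kb in PRC2cKO), Kcnq3 and Kcnt2 in PRC1cKO P7 (0.07 and -1.47 kb of H3K27me3) and Kcnb2 in PRC2cKO (0.05 kb of H3K27me3). With the upper 50% of peaks they were Kcnq5 (-3.61 kb from E18.5 to P1) and Kcnip4 (-0.16 kb from P1 to P6), both H2AK119ub. At equal covered length they were Kcnip4 (-24.7 kb), Kcnb2 (12.07 kb) and Kcnq5 in PRC2cKO (1.33 kb), and without flanks Kcne2 in PRC2cKO (0.76 kb of H2AK119ub). Apart from what each alternative leaves out, the cause was not tested. No paired analysis was possible because each group of 2 samples has 1 list, and leaving out a replicate was not possible for the same reason. Signals were ranked only within a list, and unequal covered length limits every comparison of lengths.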

Other observations

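Genes of other channels changed in both directions in PRC1cKO P7 as well. H3K27me3 rose against PRC1ctrl at Scn2a and Scn9a, which encode sodium channels of neurons. It fell at Hcn4, the pacemaker channel of the heart. Among 25 Cacn genes it fell at 6 (13.6% of all genes fell), Cacna1b, Cacnb1, Cacnb2, Cacnb4, Cacng4 and Cacng7. It rose at 2 of them (9.77% of all genes rose), Cacna1i and Cacna2d3. Scn9a was among the genes whose H3K27me3 fell from P6 to P7 in both WT and PRC1ctrl, and Cacnb1 and Cacng7 among those where it rose in both.

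From E18.5 to P1 and on to P6, Hcn2, Cacnb1, Cacnb3 and Scn3a were the genes of these lists at which H3K27me3 fell and then rose by the rule for a change. In PRC2cKO against PRC2ctrl H3K27me3 fell at all 4 of these genes, where 15.4% of all genes fell. The 4 genes were picked for changes of the same mark in WT, so the count is a description only. The PRC2cKO list covered 428.6 Mb against 558.4 Mb, and values of these genes at equal covered length are not given.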
